A study of Homo sapiens with 8 samples.

Results

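PAFAH1B1, which encodes LIS1, was examined together with 9 genes whose products work beside it: its enzyme partners PAFAH1B2 and PAFAH1B3, the LIS1-binding scaffolds NDE1 and NDEL1, the dynein subunits DYNC1H1, DYNC1I2 and DYNLL1, the dynactin subunit DCTN1 and the adaptor BICD2. Their rows were found by Ensembl gene identifier, with the version ignored, and made up 10 of the 60651 genes in the table. The set was drawn up with the difference between the treated and control libraries already known, so the values of these 10 genes in that contrast are given as a description and carry no test. Ribosome footprints, the mRNA fragments that ribosomes shield from nuclease, had been sequenced in 8 libraries of IMR32, a human neuroblastoma cell line with amplified MYCN, labelled wild type. In 4 libraries the cells had received CR31B, a silvestrol analogue of the rocaglate class that acts on the RNA helicase eIF4A, and in the other 4 they had received only the solvent DMSO at 0.1%. Treatment lasted 6 h in the protocol shared by both groups, cycloheximide was added to both before harvest, and the dose of CR31B is not given in the sources used here. The series describes the 4 libraries of a group as biological replicates, all from 1 cell line, and does not say what a replicate number stands for.

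LIS1 serves in a pair of machines. In one it is the non-catalytic subunit of the intracellular platelet-activating factor acetylhydrolase, whose catalytic subunits are the products of PAFAH1B2 and PAFAH1B3. In the other it binds the motor of cytoplasmic dynein, helped by NDE1 and NDEL1, and favours the assembly of dynein with dynactin and a cargo adaptor, which drives nuclear movement in migrating neurons and spindle positioning in dividing cells; loss of a PAFAH1B1 copy causes lissencephaly. Rocaglates are known to clamp eIF4A onto purine-rich stretches of RNA, which is why the leaders of these mRNAs, the untranslated stretch before the start codon, are shown first.

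The longest uninterrupted purine run (A or G) of the annotated leader is printed in capitals, 5′ to 3′, with a few flanking bases in lower case, for PAFAH1B1, for both of its enzyme partners, and for NDE1 and DYNC1H1, whose differences between the groups were farthest from that of PAFAH1B1. Sequences and positions were read from GENCODE release 29 on GRCh38, from 1 annotated transcript per gene, and every stretch lies within a single exon of the 5′ UTR. The stretches lie at chr17:2593746-2593772 on the plus strand for PAFAH1B1, chr11:117144308-117144329 on the plus strand for PAFAH1B2, chr19:42302463-42302484 on the minus strand for PAFAH1B3, chr16:15643677-15643699 on the plus strand for NDE1 and chr14:101964664-101964681 on the plus strand for DYNC1H1.
PAFAH1B1: gcGAGAAGGAGAAGGAGGGGAGcgctc
PAFAH1B2: ggggccGGAGGAGGGAcgcgcc
PAFAH1B3: gtccctGGAGAGGAGGcggcgc
NDE1: gcaagtGGAGAAAAAAAtaactg
DYNC1H1: gctcctGGAAGGtcccga

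The PAFAH1B1 run was 20 nt long and began at base 3 of the leader. It thus sits at the cap end of the transcript used and stops 429 nt before the start codon. That transcript starts at chr17:2593746, while the gene is annotated from chr17:2593210, so this is not the only annotated start. Among 10025 tested protein-coding genes with an annotated leader of at least 10 nt, the median longest run was 8 nt, and 268 genes (2.67%) had a run of 20 nt or more. PAFAH1B1 stood at the 97.5th percentile, and the other 9 genes had longest runs of 5 to 11 nt: 10 nt in PAFAH1B2, PAFAH1B3 and NDEL1, 11 nt in NDE1 and DCTN1, 8 nt in DYNLL1 and BICD2, 6 nt in DYNC1H1 and 5 nt in DYNC1I2. The hexamers GAGAGA and AGAGAG, searched on the transcript strand only, occurred in 1497 leaders (14.9%). Of the 10 genes, PAFAH1B1 alone held one, a GAGAGA at base 38, outside the run printed above. The leader of PAFAH1B1 was long at 451 nt, against a median of 208 nt, and its GC content of 58.8% was below the median of 66.4%. Among the other 9 genes, leaders ran from 68 nt in BICD2 to 826 nt in NDE1, and GC content from 47.3% in DYNC1I2 to 79.4% in BICD2. Whether leader length or GC content goes with the difference between the groups was not tested. A match in an annotated leader is a description: the transcription starts used in these cells were not measured, and no footprint position was analysed.

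**Figure D1:**
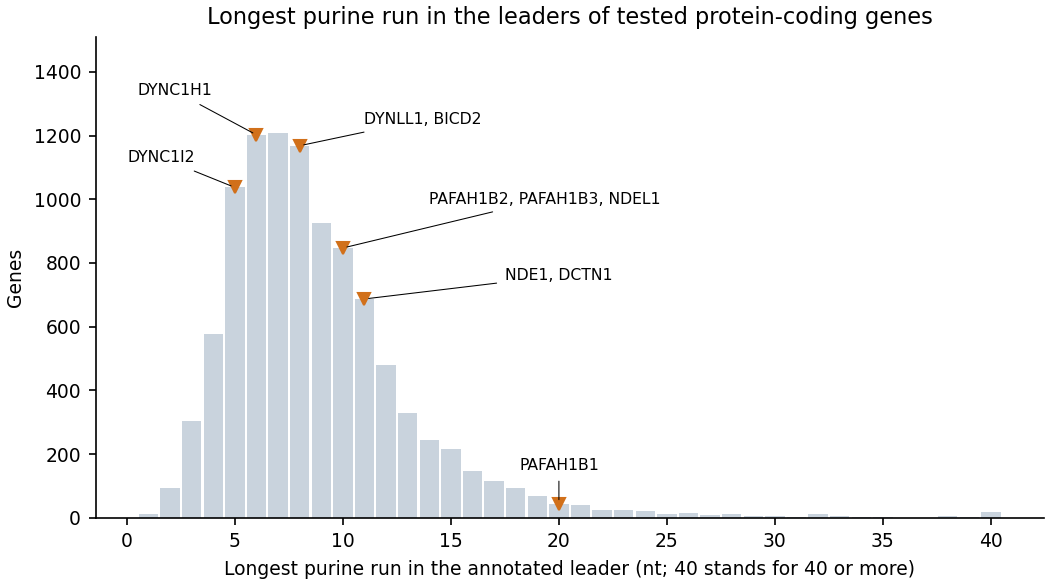
Number of tested protein-coding genes (y axis) by the length of the longest purine run in the annotated leader (x axis, nt), with the bars counting genes and orange triangles placing the 10 genes. PAFAH1B1 lies at 20 nt, in the sparse right tail, and the other 9 lie between 5 and 11 nt around the median of 8 nt.

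PAFAH1B1 had 64.93, 56.14, 57.22 and 71.14 TPM (footprint density per transcript length, scaled to the same sum in every library) in DMSO replicates 1 to 4, and 21.39, 20.92, 16.27 and 13.79 TPM in CR31B replicates 1 to 4. All 4 CR31B libraries lay far below all 4 DMSO libraries, and the CR31B value was lower in 4 of 4 replicate pairs. With 4 libraries a group, the mean was 18.1 ± 3.68 TPM after CR31B and 62.4 ± 7.04 TPM after DMSO (SD), a 3.45-fold lower level. On the log2(TPM + 1) scale the difference was -1.74 with a standard error (SE) of 0.15. That placed PAFAH1B1 at rank 26 from the most lowered of 11778 tested genes, whose mean over the libraries reached 1 TPM, and 13 of these 26 genes reached 10 TPM. Without any 1 library the difference ranged from -1.83 to -1.63. Footprints alone do not separate mRNA amount from ribosomes per mRNA, since no RNA level was analysed here, and in bulk libraries fewer cells of a type and less RNA per cell cannot be told apart.

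Both catalytic partners were lower in CR31B too, by far less. PAFAH1B2, the alpha-2 catalytic subunit, had 62.15, 66.78, 63.22 and 62.10 TPM in DMSO and 44.06, 43.81, 61.29 and 53.64 TPM in CR31B. The groups did not overlap, but CR31B replicate 3 came within 1 TPM of the lowest DMSO library. The CR31B mean was 79.8% of the DMSO mean, with a log2 difference of -0.33 (SE 0.13). PAFAH1B3, the alpha-1 catalytic subunit, had 167.92, 146.60, 181.44 and 169.76 TPM in DMSO and 133.45, 110.34, 140.21 and 118.13 TPM in CR31B. Again every CR31B library was below every DMSO library, with a CR31B mean at 75.4% of DMSO and a log2 difference of -0.41 (SE 0.12). The balance between the catalytic subunits overlapped between the groups: PAFAH1B3 supplied 72.3% ± 2.44 of their summed TPM in DMSO and 71.3% ± 2.85 in CR31B (SD, n = 4 each), with overlapping ranges of 68.7% to 74.2% and 68.8% to 75.2%. That share depends on the scale. Per coding length, as TPM times transcript length over coding length, PAFAH1B3 supplied 40.4% ± 2.83 in DMSO and 39.3% ± 3.42 in CR31B, again with overlapping ranges. Both lengths were those of 1 annotated transcript per gene, and which transcript lengths the deposited TPM divides by is not known. Against the summed TPM, PAFAH1B1 stood at 0.271 ± 0.0308 in DMSO and 0.104 ± 0.0284 in CR31B, and per coding length at 0.428 ± 0.0516 and 0.163 ± 0.0489, lower in every treated library on both scales.

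The scaffolds that hold LIS1 on dynein showed no difference of that size. NDE1 had 19.23, 18.31, 17.51 and 19.57 TPM in DMSO and 18.15, 18.91, 18.81 and 19.68 TPM in CR31B. The groups overlapped almost fully, with a log2 difference of 0.02 (SE 0.10) whose sign changed in 3 of 16 alternative settings. NDEL1, its paralogue, had 10.95, 11.44, 9.67 and 12.40 TPM in DMSO and 10.90, 9.65, 10.82 and 7.48 TPM in CR31B. These groups overlapped as well, CR31B replicate 4 being the lowest library, and the log2 difference was -0.19 (SE 0.14). NDEL1 is uncertain, because its exons overlap those of MYH10 on the opposite strand, which had 74.53 to 114.23 TPM, and whether reads were counted by strand is not given in the sources used here.

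Among the dynein subunits, the motor subunit was the member with the largest upward difference. DYNC1H1, the heavy chain that holds the ATPase motor to which LIS1 binds, had 16.15, 15.23, 21.49 and 15.42 TPM in DMSO and 26.54, 20.28, 31.27 and 20.12 TPM in CR31B. The treated library exceeded its control partner in 4 of 4 pairs, and the groups overlapped only through the high DMSO replicate 3. The CR31B mean was 144% of the DMSO mean, with a log2 difference of 0.49 (SE 0.17). DYNC1I2, the intermediate chain that docks dynactin and NDE1 or NDEL1, had 65.48, 57.75, 55.83 and 72.02 TPM in DMSO and 71.66, 58.83, 48.50 and 50.80 TPM in CR31B. The groups overlapped, and the log2 difference was -0.14 (SE 0.15). DYNLL1, the light chain LC8, had the highest TPM of the 10 genes, with 663.14, 912.36, 568.74 and 752.92 in DMSO and 676.91, 641.86, 634.50 and 568.55 in CR31B. Its DMSO libraries spread more widely and enclosed almost all of the CR31B range, and the log2 difference was -0.18 (SE 0.15).

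The partners that turn dynein into a processive motor gave a mixed picture. DCTN1, the p150 dynactin subunit that reaches to the microtubule, had 37.28, 25.63, 27.75 and 29.82 TPM in DMSO and 36.71, 24.12, 26.08 and 29.69 TPM in CR31B. Each CR31B value sat just under its DMSO partner of the same replicate number, the groups overlapped, and the log2 difference of -0.05 (SE 0.16) changed sign in 2 of 16 alternative settings. BICD2, an adaptor that links dynein and dynactin to Golgi vesicles and the nuclear envelope, had the lowest level, with 4.17, 4.33, 5.5 and 4.99 TPM in DMSO and 3.08, 2.94, 3.86 and 2.86 TPM in CR31B. All CR31B libraries were below all DMSO libraries, the CR31B mean was 67.1% of the DMSO mean, and the log2 difference was -0.46 (SE 0.14).

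**Figure D2:**
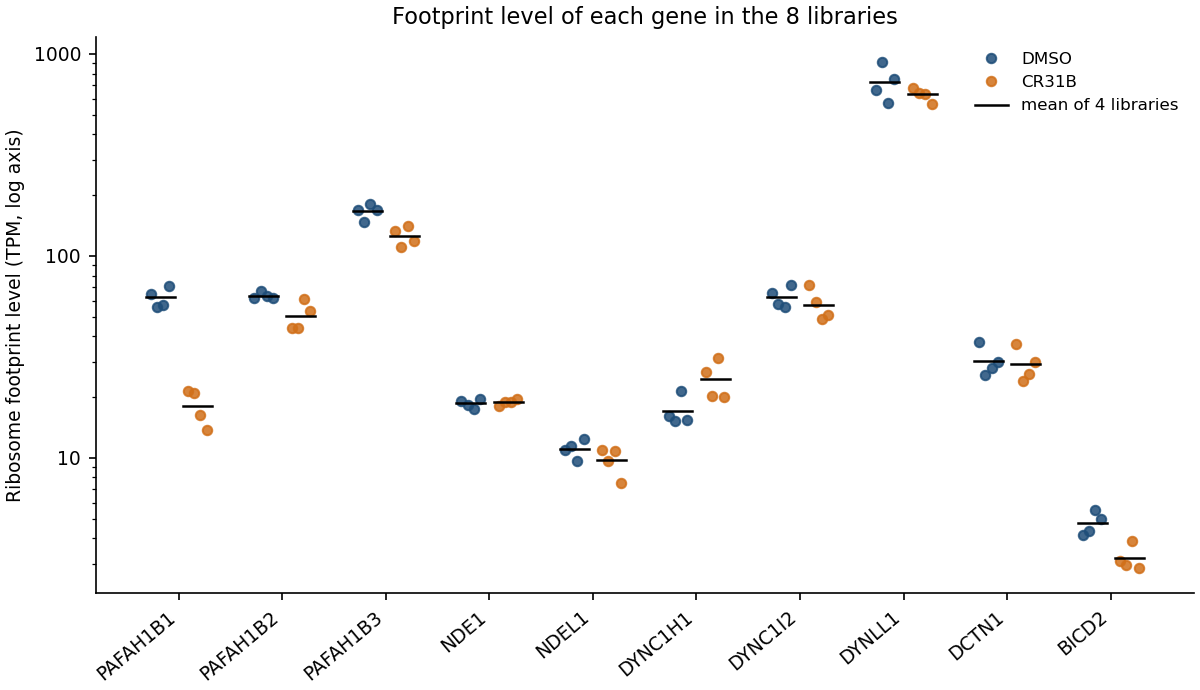
Footprint level (y axis, TPM on a log axis) of each of the 10 genes in the 4 DMSO libraries (blue) and the 4 CR31B libraries (orange), with a bar at each group's mean. PAFAH1B1 separates widely, from 56.14 to 71.14 TPM in DMSO to 13.79 to 21.39 TPM in CR31B, while 6 of the 10 genes overlap between the groups.

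Of the 10 genes, 1 was called by limma at an adjusted p under 0.05, PAFAH1B1, lower in CR31B, beside 7.46% of all 11778 tested genes (4.02% lower and 3.45% higher). All 4 CR31B libraries lay below all 4 DMSO libraries for 4 genes (PAFAH1B1, PAFAH1B2, PAFAH1B3 and BICD2) and above them for 0, beside 16.2% of all tested genes without overlap, 8.14% lower and 8.07% higher. In the limma fit with the replicate number as a block, 4 of the 10 were called, PAFAH1B1, PAFAH1B3 and BICD2 lower and DYNC1H1 higher, beside 12.3% of all genes (6.56% lower and 5.77% higher). After quantile normalization 2 of the 10 were called, PAFAH1B1 and BICD2, both lower, beside 9.97% of all genes. Because this contrast was known when the genes were picked, nothing is read from these counts. The median log2 difference was -0.18 over the 10 genes and -0.18 over the 9 other than PAFAH1B1, which ranged from -0.46 to 0.49, beside a median of 0.03 over all tested genes. The PAFAH1B1 difference was lower than that of every other member, and the DYNC1H1 and NDE1 differences were the only 2 above 0.

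**Figure D3:**
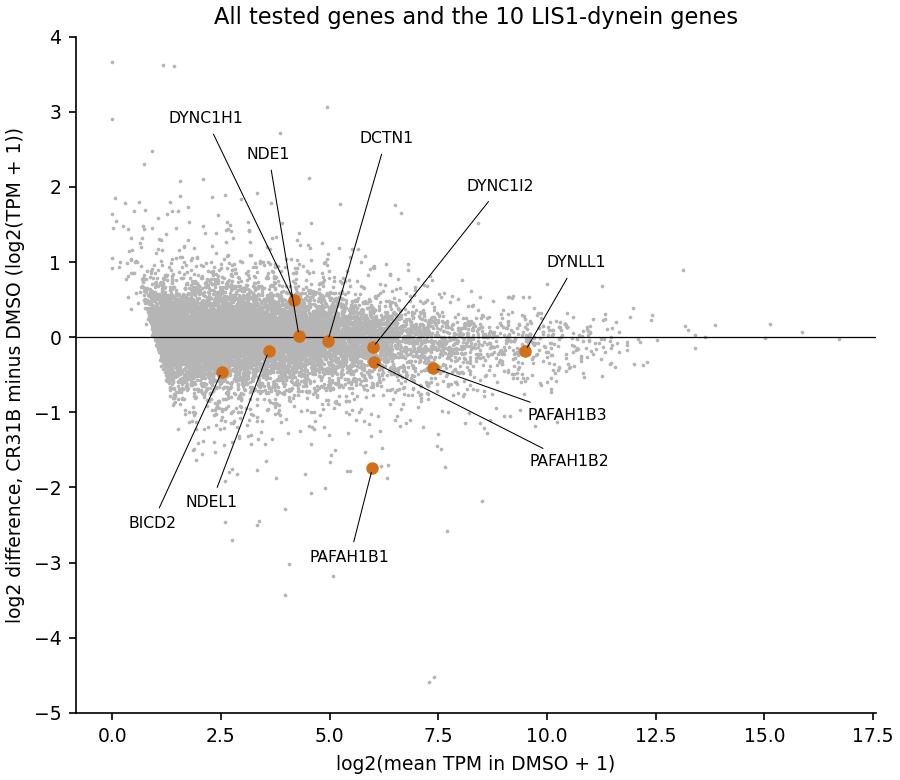
Log2 difference between CR31B and DMSO (y axis, log2(TPM + 1) scale) against the level in DMSO (x axis, log2 of mean TPM + 1) for the 11778 tested genes (grey) and the 10 genes (orange). PAFAH1B1, at -1.74, lies below the bulk of genes of its level, and the other 9 lie between -0.46 and 0.49.

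Ratios taken within a library, which do not depend on the scaling of that library, set PAFAH1B1 against each partner. Their size depends on the length that TPM divides by, while their difference between the groups in log2 of TPM does not. The ratio of TPM to the dynein intermediate chain DYNC1I2 was tight in DMSO, from 0.972 to 1.02 in the 4 libraries, and was 0.271 to 0.356 in CR31B. Per coding length the same ratio was 3.19 to 3.37 in DMSO and 0.892 to 1.17 in CR31B. Relative to DYNC1H1 the ratio of TPM was 2.66 to 4.61 in DMSO and 0.520 to 1.03 in CR31B. Per coding length it was 8.29 to 14.4 and 1.62 to 3.21, so that PAFAH1B1 was above the heavy chain in all 8 libraries on that scale, and in TPM in every DMSO library but only 1 CR31B library, replicate 2. The ratio of TPM to NDE1 was 3.07 to 3.64 in DMSO and 0.701 to 1.18 in CR31B. Relative to PAFAH1B2 the ratio of TPM was 0.841 to 1.15 in DMSO and 0.257 to 0.485 in CR31B. The groups did not overlap for any of the 9 ratios, and the difference in mean log2 ratio of TPM + 1 ran from -2.23 against DYNC1H1 to -1.29 against BICD2, with a median of -1.56. These differences were not tested, since PAFAH1B1 entered the set by its own value.

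**Figure D4:**
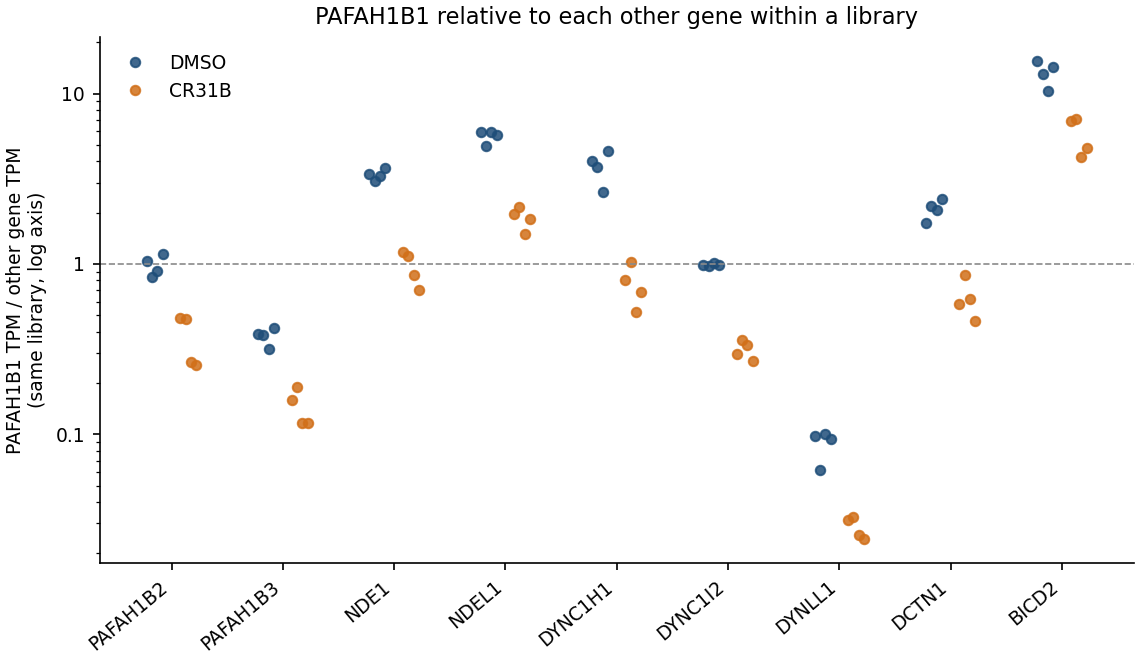
TPM of PAFAH1B1 divided by TPM of each of the other 9 genes in the same library (y axis, log axis; dashed line at a ratio of 1) in DMSO (blue) and CR31B (orange). For every gene the 4 CR31B ratios lie below the 4 DMSO ratios, for DYNC1I2 from 0.271 to 0.356 against 0.972 to 1.02.

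PAFAH1B1 moved down the order of levels in CR31B, from place 5 to place 8 of 10 in TPM and from place 3 to place 4 per coding length. In DMSO, mean TPM followed the order DYNLL1, PAFAH1B3, PAFAH1B2, DYNC1I2, PAFAH1B1, DCTN1, NDE1, DYNC1H1, NDEL1 and BICD2. The library ranges of PAFAH1B2, DYNC1I2 and PAFAH1B1 overlapped from neighbour to neighbour, as did those of NDE1 and DYNC1H1, so these neighbours did not differ beyond their spread. In CR31B, the TPM range of PAFAH1B1 overlapped that of NDE1 just above it. TPM divides by the whole transcript, while ribosomes cover the coding part, which makes up 22.4% of the PAFAH1B1 transcript (1230 of 5497 nt) against a median of 49.0%. Rescaled to coding length with the lengths of 1 chosen transcript per gene, PAFAH1B1 stood just above PAFAH1B3 in DMSO. The values were 279 against 264 with overlapping ranges, below PAFAH1B2 at 388. In CR31B it stood at 80.9 on that scale, overlapping DYNC1I2 at 78.2, and clearly below PAFAH1B2 at 310 and PAFAH1B3 at 199. The order thus depends on the scale for PAFAH1B1 and also for its catalytic partners: PAFAH1B3 was above PAFAH1B2 in TPM and below it per coding length, in both groups.

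Genes whose levels moved most like PAFAH1B1 over the 8 libraries were sought among 5604 genes whose mean reached 10 TPM, by Pearson's r of log2(TPM + 1). The closest 5 were GNAI1 (r = 0.994), which encodes an inhibitory G protein subunit, XPO1 (0.993), the nuclear export receptor, HNRNPD (0.989), an RNA-binding protein, MAB21L2 (0.987) and MLLT11 (0.987). Because this r includes the group difference of PAFAH1B1, it favours genes that are lower in CR31B. Mean TPM went from 22.8 in DMSO to 11 in CR31B for GNAI1, from 54.8 to 24.7 for XPO1 and from 517 to 248 for HNRNPD. With the group means removed, r was 0.874 for GNAI1, 0.871 for XPO1, 0.768 for HNRNPD, 0.813 for MAB21L2 and 0.759 for MLLT11. The closest genes by this second measure were AURKA (0.968), a mitotic kinase, MPHOSPH10 (0.965), C14orf119 (0.945), DRG2 (0.944) and TRIP12 (0.943). Within the set, DYNC1I2 followed the remaining variation of PAFAH1B1 most closely, at 0.861, and PAFAH1B2 ran opposite to it, at -0.749. BICD2, whose mean was under 10 TPM, was not compared. The 8 points share their libraries and treatment, and these values describe them without a test.

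The wider pathway was followed in 68 further genes in 7 lists, written with earlier results of these data known, of which 53 reached a mean of 1 TPM. With limma, 5 fell and 2 rose in CR31B, which is 13.2% of the 53 beside 7.46% of all tested genes. Their median log2 difference was -0.03, beside 0.03 over all tested genes, and 32 of the 53 were below 0. The 2 PAF acetylhydrolases that work outside the LIS1 complex were hardly present: PAFAH2 had 0.40 to 1.52 TPM and PLA2G7 was listed at 0 in every library. The rise of CENPF was among the results already known, and without it 6 of 52 genes (11.5%) were called. The block fit called 11 of the 53, 8 lower and 3 higher, beside 12.3% of all genes (6.56% lower and 5.77% higher), and kept all 7.

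Of 6 tested dynein-1 subunits 1 fell (16.7%, beside 7.46% of all tested genes), DYNC1LI2, a light intermediate chain that contacts cargo adaptors: it had 84.19, 86.44, 92.02 and 91.26 TPM in DMSO and 70.67, 56.75, 68.48 and 59.58 TPM in CR31B (log2 difference -0.47, SE 0.11, limma adjusted p = 0.0278). Its call was lost without CR31B replicate 2 or 4 or without any 1 DMSO library (adjusted p 0.0560 to 0.0890). The most abundant subunit of that list, the light chain DYNLRB1, had 189 ± 31.8 TPM in CR31B and 215 ± 33.6 in DMSO and was not called. Of 11 dynactin subunits 1 fell (9.09%), DCTN6, part of the pointed-end complex, from 19.4 ± 0.717 to 13.7 ± 1.41 TPM (log2 difference -0.48, SE 0.11, limma adjusted p = 0.0279). That call was lost without CR31B replicate 3 or 4 or DMSO replicate 1, 2 or 4 (adjusted p 0.0602 to 0.0801). CAPZA1, the capping protein subunit with the highest mean TPM of the list, had 185 ± 21.4 TPM in CR31B and 161 ± 22.4 in DMSO. The median log2 difference was -0.37 over the 6 dynein-1 subunits and -0.02 over the 11 dynactin subunits, and the block fit added DYNLL2 (adjusted p = 0.0438) and ACTR1A (adjusted p = 0.0212), both lower.

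The 14 tested adaptors gave 0 calls with limma, beside 7.46% of all tested genes. SPDL1, the kinetochore adaptor Spindly, had the highest mean TPM among them, with 95.5 ± 17.1 TPM in CR31B and 65.8 ± 7.82 in DMSO (limma adjusted p = 0.0647). It was called, as higher, after TPM was rescaled to protein-coding genes, after quantile normalization and without CR31B replicate 4. The 4 tested subunits of dynein-2, the motor of cilia, also gave 0 calls. DYNC2I2, the highest of them, had 19.9 ± 3.75 TPM in CR31B and 17.8 ± 2.62 in DMSO, and the block fit called DYNLT2B, lower (adjusted p = 0.0315).

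Of 14 tested LIS1 chaperones, partners and migration genes, 3 fell and 1 rose (28.6%, beside 7.46% of all tested genes). NUDC, a co-chaperone that stabilizes LIS1, had 91.09, 88.36, 96.26 and 99.90 TPM in DMSO and 63.50, 66.51, 59.44 and 63.03 TPM in CR31B. The groups were well apart, and the log2 difference of -0.57 (SE 0.10, limma adjusted p = 0.00813) kept its call in all 16 alternative settings. DCLK1, a doublecortin-like kinase of migrating neurons, fell from 6.90 ± 0.610 to 4.14 ± 0.651 TPM (log2 difference -0.63, SE 0.14, limma adjusted p = 0.0217). Its call was lost without CR31B replicate 4 or DMSO replicate 1, 2 or 4 (adjusted p 0.0532 to 0.0631). CDK5R1, the p35 activator of the kinase CDK5 that phosphorylates NDEL1, fell from 7.65 ± 0.536 to 5.22 ± 0.402 TPM (log2 difference -0.48, limma adjusted p = 0.0333), a call lost when any 1 of the 8 libraries was left out. VLDLR, a receptor for the migration signal reelin, rose: it had 5.34, 5.59, 5.79 and 4.32 TPM in DMSO and 12.51, 7.17, 13.42 and 11.39 TPM in CR31B (log2 difference 0.93, SE 0.18, limma adjusted p = 0.0149). CR31B replicate 2 was the lowest treated library yet above all controls, and the call was lost without DMSO replicate 4 (adjusted p = 0.0535). YWHAE, the 14-3-3 protein that protects phosphorylated NDEL1 and lies near PAFAH1B1 on chromosome 17, had 1116 ± 132 TPM in CR31B and 1430 ± 117 in DMSO and was not called (log2 difference -0.36, limma adjusted p = 0.129).

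Of 4 tested genes that recruit dynein to kinetochores, 1 was called (25.0%, beside 7.46% of all tested genes). This was CENPF, a large mitotic protein that binds NDE1 and NDEL1, which rose. Because that rise was known when the list was written, the share and the CENPF values are a description and not a test. No other gene of the list was called in the limma fit without the block. CENPF had 289.50, 396.46, 428.28 and 249.54 TPM in DMSO and 957.13, 711.27, 1381.81 and 905.83 TPM in CR31B, with no overlap. The log2 difference was 1.53 (SE 0.23, limma adjusted p = 0.00418), called in all 16 alternative settings. ZW10 and ZWILCH were near 0, at 0.03 and -0.01, and KNTC1 was 0.69 on the log2 scale with a limma adjusted p of 0.0539, or 0.0404 in the block fit. KNTC1 was also called, as higher, among genes whose mean reached 10 TPM, after rescaling to protein-coding genes, after quantile normalization and without CR31B replicate 2 or DMSO replicate 1.

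**Figure D5:**
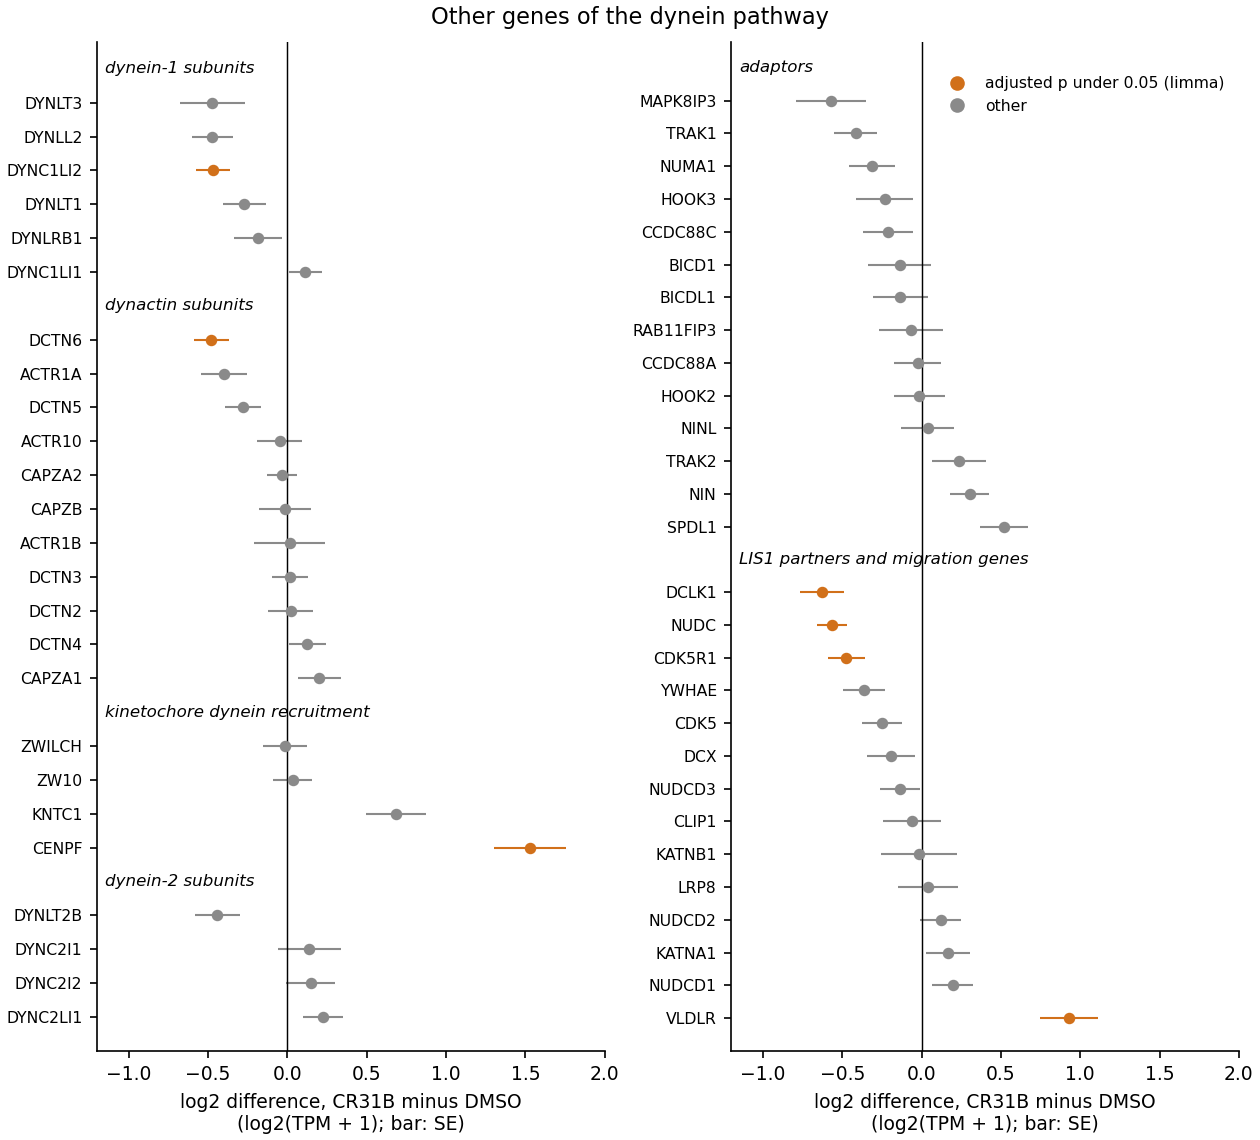
Log2 difference between CR31B and DMSO (x axis, log2(TPM + 1) scale, 4 libraries per group, bars show the SE) for the 53 tested genes of the wider pathway, grouped by role. Orange marks the 7 genes called by limma, with CENPF at 1.53 and VLDLR at 0.93 on the right and 5 genes between -0.63 and -0.47 on the left.

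Assignment of footprints to the 10 genes was checked against neighbours and copies. The PAFAH1B1 gene (ENSG00000007168.14) spans chr17:2593210-2685615 on the plus strand (GRCh38, GENCODE 29), and the 3 annotated genes whose exons overlap its own had 0 TPM in every library. The enzyme partners lie on other chromosomes, PAFAH1B2 (ENSG00000168092.14) at chr11:117144267-117176894 on the plus strand and PAFAH1B3 (ENSG00000079462.8) at chr19:42297033-42303546 on the minus strand. NDE1 (ENSG00000072864.16) lies at chr16:15643267-15726353 and NDEL1 (ENSG00000166579.16) at chr17:8413131-8490411, both on the plus strand. The dynein subunits lie on the plus strand as well, DYNC1H1 (ENSG00000197102.13) at chr14:101964510-102056443, DYNC1I2 (ENSG00000077380.16) at chr2:171687409-171748420 and DYNLL1 (ENSG00000088986.11) at chr12:120469850-120498493. DCTN1 (ENSG00000204843.13) at chr2:74361154-74392087 and BICD2 (ENSG00000185963.14) at chr9:92711363-92764812 lie on the minus strand. Other than MYH10, no gene with exons over one of the 10 exceeded the 1.04 TPM of PRR19, which lies opposite PAFAH1B3. Of 13 annotated pseudogenes named after the 10 genes, 12 stayed at or below 1 TPM, among them PAFAH1B1P1 at 0 and PAFAH1B1P2 at up to 0.18 TPM; DYNLL1P3 reached 6.98 TPM, far below DYNLL1. The coding sequences of PAFAH1B2 and PAFAH1B3, and those of NDE1 and NDEL1, shared 0 stretches of 28 nt. A footprint of that length can thus be told apart within each pair. Such stretches were not sought for the pseudogenes or for other paralogues. How reads with several positions were handled is not given, so the low TPM of a copy does not show where shared reads were assigned.

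Protein-coding genes took 51.8% to 61.3% of TPM per library, CR31B replicate 1 being highest, and 17857 to 22270 genes were above 0. Of 12 neuroblast markers 11 were at or above 1 TPM in every library, TH being the exception at 0.35 to 1.19 TPM, and their summed level was 1301 to 1876 TPM in CR31B and 1223 to 1456 TPM in DMSO. Sums of Schwann and glial markers stayed between 0.61 and 2.08 TPM over all libraries with SOX10 and OLIG2 at 0, blood and endothelial markers reached at most 0.08 TPM with CD3E, HBB and PECAM1 at 0, and epithelial markers at most 0.12 TPM with KRT14 and CDH1 at 0. Mesenchymal markers summed to 39.13 to 48.49 TPM in CR31B and 35.15 to 54.38 TPM in DMSO, carried by TWIST1 and COL1A1, with PRRX1 at 0.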

How the data were processed

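The authors deposited 1 table of TPM for 60651 genes in 8 ribosome-profiling libraries, 4 per group. Per the submitters' processing notes, cutadapt 3.2, Bowtie2 2.3.4.1, STAR 2.7.1a, RSEM 1.2.28 and DESeq2 1.32.0 were used, with builds hg38 and GRCh38. Their roles, the annotation, the strand setting and the handling of reads with several positions are not given in the sources used here. Per the labels' protocols, fragments of 28 to 30 nt were cut from a gel and libraries were sequenced in 2 runs; which library was in which run is not given, so no run effect could be computed. TPM fixes the sum per library and carries no read counts. Low values were tested for whole-read steps, but only 52.5% to 60.5% of them per library fell within 0.15 of a whole multiple, so reads were not recovered and the depth behind a value is unknown.

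Values were analysed as log2(TPM + 1), on which the change of low genes is understated. The 11778 genes whose mean reached 1 TPM were fitted with limma 3.58.1 in R 4.3.3 (lmFit, then eBayes with trend; treatment as the only term), p-values were adjusted by Benjamini-Hochberg over all of them, and the fit was tested on simulated data. The 10 genes and all gene lists were chosen with earlier results of these data known. In each list the called genes and the gene with the highest mean were named, and for likeness to PAFAH1B1 the 5 genes with the highest r. The main fit ignores replicate numbers, so its SEs, calls and adjusted p are unpaired. Pairs by number served only for the pair counts and for an alternative fit with the number as a block. They were used because same-numbered libraries resembled each other in their deviations from the group means of log2(TPM + 1) over the tested genes. The r of these deviations was 0.333, 0.324, 0.301 and 0.105 for numbers 1 to 4. Libraries of the other group with different numbers gave -0.206 to 0.134, a range that holds the value of number 4. Of the 8 libraries, 7 correlated best with their own number. The block fit called 1453 genes where the main fit called 879, and 4 of the 10 genes where the main fit called 1. Further alternatives were other pseudocounts, filters, scalings and each library left out. Symbols were found for 60481 identifiers. Leaders, and the lengths for values per coding length, were taken from GENCODE 29, 1 transcript per gene (APPRIS principal, then the longest coding sequence). Values per coding length assume that the deposited TPM rests on the length of that transcript. Python 3.11.15 with pandas 2.3.3, NumPy 2.4.6, Biopython 1.88 and matplotlib 3.10.9 served for the rest.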

Additional observations from a re-analysis of the deposited data

Results flagged for a closer look

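DYNC1H1 in DMSO replicate 3 stood apart from the other DMSO libraries. Its 21.49 TPM lay above 16.15 TPM in the next library and 15.23 TPM in the lowest, so that the gap took 0.831 of the range, just above the 95% critical value of Dixon's test for 4 libraries. Of 34 groups examined 1 stood out in this way, where chance would give about 1.7. CR31B replicate 3 was likewise the highest CR31B library, at 31.27 TPM, so the treated library of the same number was high too. Leaving out DMSO replicate 3 alone breaks that pair. The DYNC1H1 difference was then 0.60 on the log2 scale instead of 0.49, and the groups no longer overlapped. Without CR31B replicate 3 instead, the difference was 0.37.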

How the results depend on the processing

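The PAFAH1B1 difference stayed between -1.83 and -1.55 on the log2 scale over 16 alternative settings, and the median difference relative to the other 9 genes between -1.63 and -1.42 over 13. Counts of called genes were less stable. Of all tested genes, 879 were called (406 higher, 473 lower): with no filter 442 (181 and 261), with the replicate block 1453 (680 and 773), and 674 higher after rescaling to protein-coding genes. With 1 library left out the count was 404 to 785 (197 to 395 higher, 207 to 487 lower), lowest without DMSO replicate 4 and also low without CR31B replicate 4 (516) or DMSO replicate 1 (502) or 2 (514). Of the wider pathway genes, 7 were called (2 higher, 5 lower): with no filter 4 (1 and 3), with the replicate block 11 (8 lower), with a mean of at least 10 TPM 3 lower, and 4 higher after rescaling to protein-coding genes or after quantile normalization. With 1 library left out 2 to 6 were called (1 to 3 higher, 1 to 4 lower), lowest without DMSO replicate 4. No filter adds genes to the adjustment and a left-out library removes a sample. With a mean of at least 10 TPM, 34 wider pathway genes were tested, and CDK5R1, DCLK1 and VLDLR were not among them. The cause of the other shifts was not tested. The limit of low levels shows in BICD2, whose difference was -0.25 with a pseudocount of 5, and which was not tested at a mean of at least 10 TPM. BICD2 was called, as lower, after quantile normalization and with the replicate block. With no filter the calls of CDK5R1, DCLK1 and VLDLR were lost (adjusted p 0.0501, 0.0547 and 0.0617). NDE1 changed sign in 3 settings, and DCTN1 in 2 that left out CR31B replicate 2 or DMSO replicate 1 and so broke a pair; DCTN1 was lower in 4 of 4 pairs. The PAFAH1B3 share of the enzyme partners, 72.3% in DMSO and 71.3% in CR31B, was 40.4% and 39.3% per coding length, a scale added after seeing the data.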
